A study of Mus musculus with 180 samples.

Results

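The Camk2a ribosome capture was set against the cytosolic Input of the same hippocampus, over 60 of the series' 180 libraries. These were the 30 libraries of the cytosolic (SUP) fraction whose titles name the HA capture and the 30 of that fraction whose titles name Input, and the capture and the Input of a mouse were paired by the number that ends both titles. The mice fell into 4 groups: 7 with contextual fear conditioning and then sleep deprivation (CFC SD), 8 with conditioning and then sleep (CFC Sleep), 7 without conditioning and with sleep deprivation (NoCFC SD) and 8 without conditioning that slept (NoCFC Sleep). All 30 mice were males carrying the Tg(Camk2a-cre)T29-1Stl/J driver, on a B6.Cg background, and the ribosome tag of the B6N.129-Rpl22tm1.1Psam/J line, in the control groups as much as in the others. Their age and the length of the deprivation are not given in the sources used here, and no mouse without the tag or without Cre was among the libraries analysed. The tissue is labelled brain, and the study's title names the hippocampus.

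In such mice, Cre recombinase lets a cell make the ribosomal protein Rpl22 with an HA tag, so that an antibody to HA pulls down the ribosomes of Cre-positive cells together with the RNA they hold. The Camk2a gene encodes a subunit of a calcium-dependent kinase of excitatory neurons, and its promoter drives Cre in forebrain pyramidal cells and dentate granule cells. The T29-1 line is known for recombination centred on CA1 pyramidal cells. Inhibitory neurons, glia, vessels and blood contribute RNA to the Input but, where Cre is silent, no tagged ribosomes to the capture. The question of the comparison is therefore from which cells, and which kinds of RNA, the tagged ribosomes drew.

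Total counts ranged from 14440926 to 25306535 in the captures and from 13403529 to 25400461 in the Inputs. Levels are in CPM, a count scaled to the library total after TMM normalization; a level in CPM is not corrected for gene length, so levels were compared between libraries and not between genes. The Input of mouse 6 (NoCFC Sleep) stood apart: 172 genes differed there by more than 2-fold from the other Inputs, against 0 to 15 in any other library. The library numbers in the labels ran from 119226 to 119321 in the captures and from 119346 to 119397 in the Inputs, so that the library types held separate ranges of numbers, and whether they were prepared together is not given in the sources used here. Mice 1 to 11 had no conditioning, mice 12 to 22 were conditioned, and mice 23 to 30 held 2 of each group.

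A gene was called higher or lower at an adjusted p under 0.05 and a fold of 2, from edgeR's quasi-likelihood test with the mouse as a block, averaged over the 4 groups. Most calls were downward. Of 15144 genes tested, 2145 (14.2%) were lower in the capture than in Input and 39 (0.258%) were higher. At an adjusted p alone, 6262 (41.3%) were higher and 6734 (44.5%) lower, and the median absolute log2 fold change was 0.33. The median of the signed values was -0.02, which TMM scaling holds near 0. In 1897 genes (12.5%) all 30 captures lay below all 30 Inputs, and in 983 (6.49%) all 30 lay above. The log2 fold changes ran from -7.55 to 1.67. With scaling to library totals in place of TMM the median gene stood at -0.14, and 19 genes were called higher, all 19 of them among the 39. Genes with counts in Input alone could pass the filter on low counts only as lower genes: of the 1744 genes that did not pass it in both library types, 994 were called lower and 9 higher. Of the 2145 lower genes 128 were in the lists of cell type markers used here, as were 4 of the 39 higher ones. Where exons of 2 genes overlap, reads cannot be assigned between them, since the sources used here do not say whether counting used the strand. Among genes named below this touches Pou3f1, Prox1, Amigo2, Nmb, Slc32a1, Lhx6, Nos1, Olig1, Pdgfra, P2ry12, Slc1a2, Malat1, Penk, Trip11, Selenop, Litaf, Neat1, Snhg14, Meg3, Gas5, Rpl22l1, Eef1a1, Psma4, Uqcrc2, Grin2c, Gria2, Grin1, Grin2b, Kcnj9, Usp2, Rbm3, Itpk1, Fam13c, Kif5b and H1f0, whose values are uncertain to that extent. Because the values are shares of a library, fewer tagged cells of a type, less of an RNA per cell and less of it on ribosomes cannot be told apart.

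Excitatory-neuron markers were modestly higher in the capture. Of 15 such genes 14 were higher at an adjusted p alone, beside 41.3% of all genes tested. None was higher by a fold of 2, and the median log2 fold change was 0.54. Camk2a itself (chromosome 18, 60925618 to 60988152, GRCm38) had 2522, 2920 and 3463 CPM as the lowest, median and highest of the captures, against 853, 1793 and 2081 CPM in the Inputs. The captures and Inputs did not overlap, and the log2 fold change was 0.74 ± 0.04 (SE, adjusted p = 3.56e-17), or 0.71 without mouse 6, whose Input held the lowest value. Cpne6, a calcium-binding copine of excitatory neurons, had 904 to 1277 CPM in the captures and 504 to 763 CPM in the Inputs, at 0.76 ± 0.01, and the transcription factor gene Neurod6 was at 0.69 ± 0.02, both with captures wholly above Inputs. Slc17a7, which encodes the vesicular glutamate transporter VGLUT1, stood at 0.04 ± 0.02 (adjusted p = 0.10), with 1500 to 2155 CPM in the captures and 1344 to 2160 CPM in the Inputs. Its captures and Inputs overlapped, and with scaling to library totals it turned to -0.082 (adjusted p = 0.000263). The summed level of the 15 genes was 14217 to 16812 CPM of the total count in the captures and 9715 to 13250 CPM in the Inputs.

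**Figure D1:**
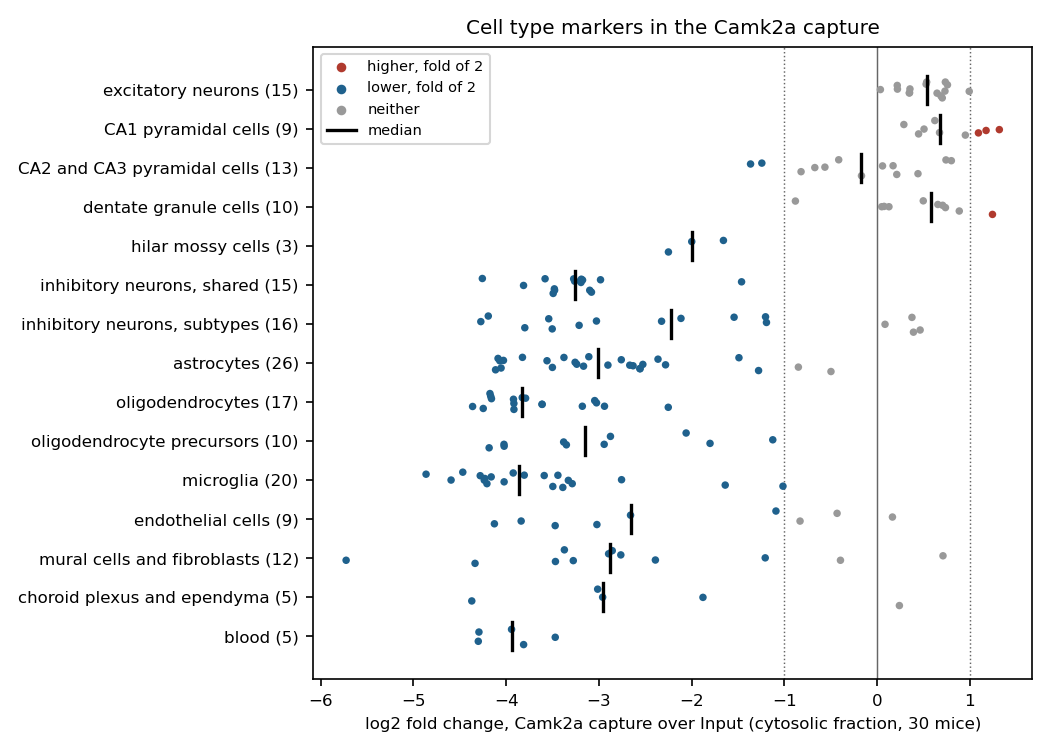
Each point is a marker gene of the list named at the left, with the number of genes tested in brackets; the horizontal axis gives the log2 fold change of the Camk2a capture over Input in the cytosolic fraction of 30 mice, black bars mark medians, and dotted lines mark a fold of 2. Pyramidal and granule cell lists lie near or right of 0, with medians of 0.67 for CA1 and 0.58 for dentate granule cells, and the medians of the inhibitory, glial, vascular and blood lists lie left of it, at -3.86 for microglia, with single genes of the inhibitory subtype, vascular and choroid plexus lists right of 0.

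Among the fields of the hippocampus, CA1 markers had the highest median. Of 9 genes, 3 were higher by a fold of 2, beside 0.258% of all genes tested. All 9 were higher at an adjusted p alone, beside 41.3% of all genes, with a median of 0.67. Wfs1, the gene of the ER membrane protein wolframin, had 162, 237 and 416 CPM as lowest, median and highest in the captures, against 74.9, 97.2 and 128 CPM in the Inputs. No capture reached down to an Input, and the log2 fold change was 1.32 ± 0.04 (adjusted p = 2.65e-21). Pou3f1, a POU-domain transcription factor gene, was at 1.18 ± 0.04 and Nov, which encodes a secreted matricellular protein, at 1.09 ± 0.03. Fibcd1, the gene of a chitin-binding receptor, was at 0.95 ± 0.03 and fell short of a fold of 2, and Gpr161, an orphan receptor gene, was lowest of the list at 0.29 ± 0.05.

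Dentate granule markers had a median of 0.58. At an adjusted p alone 7 of 10 genes were higher, beside 41.3% of all genes tested. By a fold of 2, 1 of the 10 was called higher, beside 0.258% of all genes. That gene was Plk5, a polo-like kinase gene, with 63.4 to 129 CPM in the captures against a median of 36.8 CPM in the Inputs, all of them lower, and a log2 fold change of 1.24 ± 0.04 (adjusted p = 4.70e-26). Tdo2, which encodes tryptophan dioxygenase, was at 0.89 ± 0.04. Prox1, the transcription factor gene that specifies granule cells, was at 0.08 ± 0.04 (adjusted p = 0.11) with 95.6 to 196 CPM in the captures and 107 to 171 CPM in the Inputs. Glis3, a zinc-finger gene, went the other way at -0.88 ± 0.09 and was lower in 29 of 30 mice.

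CA2 and CA3 markers were split. Of 13 genes, 5 were higher and 7 lower at an adjusted p alone, beside 41.3% and 44.5% of all genes tested. By a fold of 2, 2 were lower, beside 14.2% of all genes, and none was higher. These counts lay near the shares over all genes, and the list median was -0.17. The lower pair was Amigo2, an adhesion gene of CA2 and CA3, at -1.36 ± 0.06, and Coch, which encodes the matrix protein cochlin, at -1.24 ± 0.08. Amigo2 had a median of 11.9 CPM in the captures and 29.9 CPM in the Inputs, and the libraries did not overlap. Rgs14, a G-protein regulator of CA2, was at 0.74 ± 0.02 and Dkk3, the gene of a secreted dickkopf protein, at 0.80 ± 0.02, both with captures wholly above Inputs. Of the 4 markers of hilar mossy cells, Csf2rb2 had too few counts, and the other 3 were lower. The receptor genes Calcrl at -2.25 ± 0.10 and Drd2 (25.0% of Input) and the neuropeptide gene Nmb at -1.66 ± 0.17 all had few reads, with 2 to 29 counts per capture and 10 to 145 per Input, and 2 of the 3 passed the filter only through Input.

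The list median of CA2 and CA3 stayed below those of CA1 and granule cells mouse by mouse, although single members were higher in the capture, as given above. In each mouse the median log2 ratio of capture to Input was taken over the genes of a list. The CA2 and CA3 median was below the CA1 median in 30 of 30 mice, by 0.19 to 1.70, and below the granule median in 30 of 30. The granule median was below the CA1 median in 23 of 30 mice, with differences of -1.11 to 0.38, so these 2 lists changed places among mice. CA1 medians ranged from 0.41 to 1.30 among mice and CA2 and CA3 medians from -0.62 to 0.31, whereas those of the general excitatory markers stayed between 0.40 and 0.65.

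**Figure D2:**
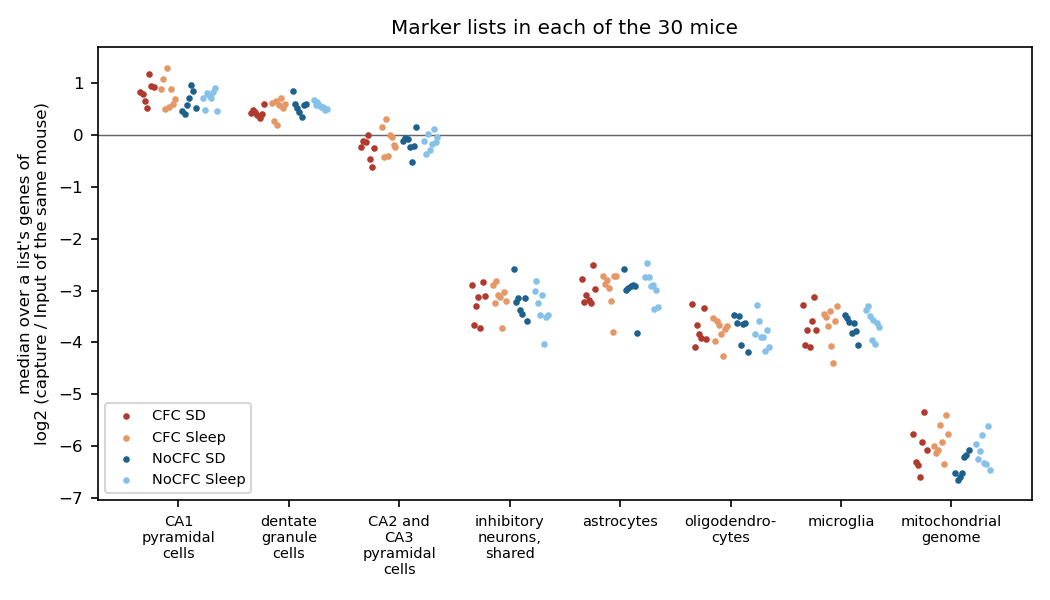
Each point is a mouse; the vertical axis gives the median, over the genes of the list on the horizontal axis, of the log2 ratio of Camk2a capture to Input of that mouse, and colours mark the 4 groups (7, 8, 7 and 8 mice). Microglial medians lie between -4.39 and -3.13, and mitochondrial medians between -6.64 and -5.34.

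Markers of inhibitory neurons were lower in the capture, most of them by far more than a fold of 2. All 15 markers shared by inhibitory neurons were lower by a fold of 2, beside 14.2% of all genes tested. In all 15 the captures lay wholly below the Inputs, beside 12.5% of all genes. Of the 15, 14 passed the filter in both library types. The list median was -3.26, which is 10.4% of the Input level. Gad2, which encodes the smaller GABA-synthesising enzyme, had 7.28, 13.7 and 28.4 CPM as lowest, median and highest in the captures, against 111, 125 and 154 CPM in the Inputs, at -3.18 ± 0.09 (adjusted p = 1.85e-23). Slc32a1, the vesicular GABA transporter gene, was at -3.10 ± 0.08. Lhx6, a transcription factor gene of interneurons from the medial ganglionic eminence, was at -3.81 ± 0.06. Gad1, which encodes the other GABA-synthesising enzyme, was reduced much less, with 68.7, 89.4 and 127 CPM in the captures and 224, 259 and 304 CPM in the Inputs, at -1.46 ± 0.05 (adjusted p = 6.99e-21). Its capture thus kept 36.3% of the Input level, against 11.1% for Gad2. The summed level of the 15 genes was 117 to 237 CPM of the total count in the captures and 885 to 1113 CPM in the Inputs.

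Markers of inhibitory subtypes divided further. Of 16 genes 12 were lower by a fold of 2, beside 14.2% of all genes tested, and 2 of the 12 passed the filter only through Input. Among the 12 were Pvalb (parvalbumin, a calcium buffer of fast-spiking basket cells) at -4.27 ± 0.05, Htr3a (an ionotropic serotonin receptor) at -3.21 ± 0.09 and Vip (vasoactive intestinal peptide) at -3.54 ± 0.09. Cnr1, the gene of the cannabinoid receptor, was at -1.20 ± 0.02 and Calb2 (calretinin) at -1.19 ± 0.08. The remaining 4 were higher at an adjusted p alone and none reached a fold of 2: the nitric oxide synthase gene Nos1 at 0.39 ± 0.02, Cck (cholecystokinin) at 0.38 ± 0.02, Lamp5 at 0.46 ± 0.02 and the receptor kinase gene Kit at 0.09 ± 0.02, which turned to -0.032 with scaling to library totals. Cck had 364 to 686 CPM in the captures and 283 to 469 CPM in the Inputs, and was higher in the capture of all 30 mice.

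Glial markers were lower almost throughout. All 17 oligodendrocyte genes, all 10 genes of their precursors and all 20 microglial genes were lower, as were 24 of 26 astrocyte genes. Over all genes tested 14.2% were lower by a fold of 2. Of the oligodendrocyte genes 1 passed the filter only through Input. Among oligodendrocyte genes, Mog, a myelin surface glycoprotein gene, had 1.65, 2.88 and 4.56 CPM in the captures, against 45.2, 60.2 and 84.1 CPM in the Inputs, at -4.36 ± 0.06 (adjusted p = 2.48e-33). Mbp, which encodes myelin basic protein, was the least reduced of that list, at -2.25 ± 0.03. Its 187 to 264 CPM in the captures stood against 807 to 1418 CPM in the Inputs. Of the precursor genes, Olig1 was at -4.18 ± 0.06 and Pdgfra, the growth factor receptor that marks these cells, at -3.38 ± 0.12.

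Microglial genes ran from Fcer1g, an immune-receptor adaptor gene, at -4.86 ± 0.10, to the lysosomal gene Cd68 at -1.01 ± 0.06. Fcer1g had 1 to 8 counts per capture and 68 to 162 per Input. The purinergic receptor gene P2ry12 was at -4.28 ± 0.07. Of the 20 genes, 7 passed the filter on low counts only through Input, all 7 called lower. The summed level of the list was 17.6 to 30.4 CPM in the captures and 208 to 312 CPM in the Inputs.

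Astrocyte genes had a median of -3.01. Their per-mouse median lay above the microglial and the oligodendrocyte medians in 30 of 30 mice, by 0.23 to 1.03 and by 0.36 to 1.14. All 26 astrocyte genes passed the filter in both library types, whereas 7 microglial genes and 1 oligodendrocyte gene passed only through Input. Such genes could be called only as lower, so the order of these medians may depend on them, which was not tested. Gja1, the gap-junction gene of connexin 43, had 3.19 to 6.91 CPM in the captures and 48.7 to 121 CPM in the Inputs, at -4.06 ± 0.06. The glutamate transporter gene Slc1a2 was far less reduced, with 55.9 to 97.4 CPM in the captures and 133 to 248 CPM in the Inputs, at -1.28 ± 0.04, and Clu (clusterin) was at -1.49 ± 0.04. The bicarbonate transporter gene Slc4a4 at -0.85 ± 0.05 and Atp1b2, a sodium pump subunit gene, at -0.50 ± 0.03 were lower at an adjusted p without reaching a fold of 2.

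Most vascular, ventricular and blood markers tested were lower by a fold of 2, but many of them passed the filter only through Input. The counts were 6 of 9 endothelial genes, 10 of 12 genes of mural cells and fibroblasts, 4 of 5 of choroid plexus and ependyma, and 5 of 5 of blood. Over all genes tested 14.2% were lower. Of these marker genes, 5 endothelial, 6 mural, 1 choroid plexus and 4 blood genes passed the filter on low counts through Input alone, and could be called only as lower. A further 3, 1 and 5 genes of the first 3 lists were not tested. Among genes that passed in both library types, 1 of 4 endothelial, 4 of 6 mural, 3 of 4 choroid plexus and 1 of 1 blood genes were lower. Cldn5, a tight-junction gene of endothelium, was at -3.47 ± 0.16 and Acta2, smooth-muscle actin, at -4.34 ± 0.12, both after passing the filter only through Input. Dcn, which encodes the matrix proteoglycan decorin, was at 0.71 ± 0.02 instead, with 51.6 to 143 CPM in the captures and 33.6 to 81.2 CPM in the Inputs, higher in all 30 mice. Ttr, the main secreted protein of the choroid plexus, had a median of 2.28 CPM in the captures and ranged from 1.99 to 619 CPM in the Inputs, and was lower in 27 of 30 mice (-2.96 ± 0.39, adjusted p = 8.73e-08). Inputs thus held very uneven amounts of this transcript.

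**Figure D3:**
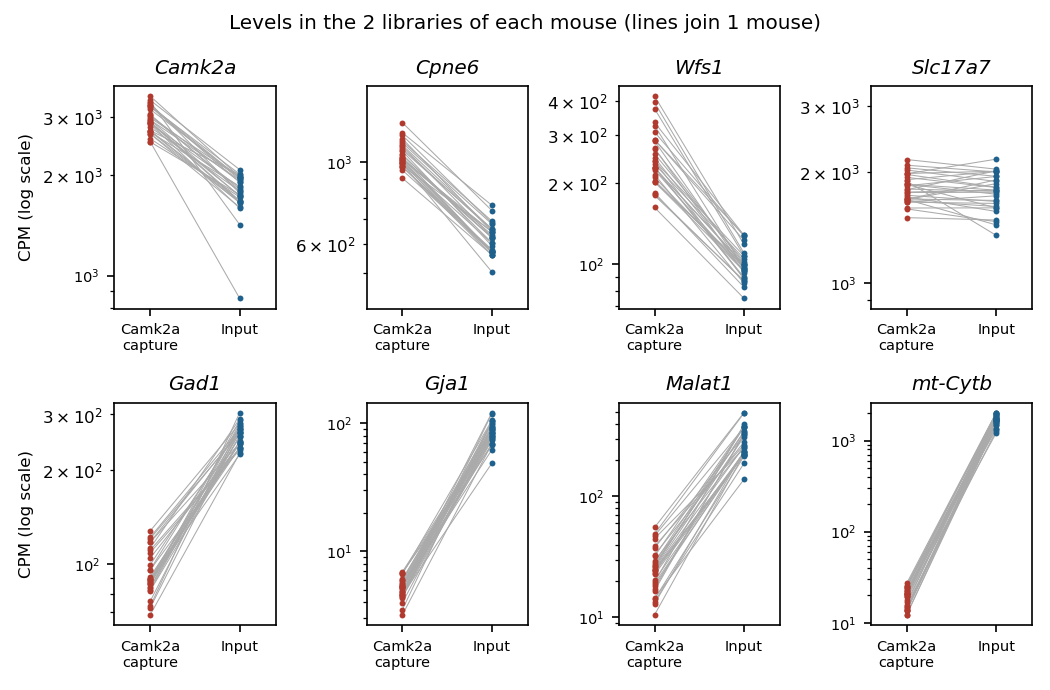
Levels of 8 genes in CPM, on log axes, in the Camk2a capture (left, red) and the Input (right, blue) of each of 30 mice, joined by a line per mouse. Captures lie wholly above Inputs for Camk2a, Cpne6 and Wfs1 and wholly below for Gad1, Gja1, Malat1 and mt-Cytb, whereas Slc17a7 overlaps; the low Camk2a Input of 853 CPM is that of mouse 6.

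The genes with the largest positive changes were few and mostly outside the marker lists. By the rule given for named genes, 15 were taken, from 1.67 to 1.06. Sh3pxd2a, which encodes the invadopodia scaffold Tks5, had a median of 18.7 CPM in the captures and 6.23 CPM in the Inputs, without overlap, at 1.67 ± 0.07 (adjusted p = 5.23e-21). Efcab6, an EF-hand gene, was at 1.45 ± 0.04, also without overlap. Rasd1, a dexamethasone-induced Ras gene, was at 1.26 ± 0.03, with 118 to 262 CPM in the captures and 48.8 to 94.5 CPM in the Inputs. Others were Htr5b, a serotonin receptor gene (1.22), the lipoxygenase gene Alox12b (1.17), the kinase gene Hipk4 (1.16), the enkephalin gene Penk (1.13), the Golgi-tether gene Trip11 (1.10), the adaptor gene Bcar1 (1.07) and Baiap2 (1.06), beside Wfs1, Plk5, Pou3f1 and Nov given above. Baiap2, which encodes the actin regulator IRSp53 of dendritic spines, had 641 to 900 CPM in the captures and 284 to 472 CPM in the Inputs.

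Among genes with an average log2 CPM of at least 3, predicted genes left aside, the most negative values were those of Bc1 and of mitochondrial RNA. Bc1, a short cytoplasmic RNA of rodent neurons that is not translated and is known as a repressor of translation in dendrites, was lowest of all 15144 genes. It had 0 to 6 counts per capture and 177 to 514 per Input, or at most 0.375 CPM in the captures and 11.3 to 24.9 CPM in the Inputs, at -7.55 ± 0.11 (adjusted p = 1.35e-39). Its sequence is shown because it is the feature with the largest change and because its middle is rich in A. It is that of the GENCODE vM21 transcript at chr7:144914470-144914637 on the plus strand of GRCm38, 168 bases with 41.7% A, written as DNA, with its 2 runs of 8 or more A in capitals (23 and 9 bases).
Bc1: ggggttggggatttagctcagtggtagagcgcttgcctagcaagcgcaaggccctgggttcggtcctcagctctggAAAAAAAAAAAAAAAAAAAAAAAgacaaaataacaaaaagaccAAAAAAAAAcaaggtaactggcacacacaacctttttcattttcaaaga

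Rn7sk, a nuclear RNA that restrains transcription elongation, had 0 to 3 counts per capture and 30 to 79 per Input, at -5.96 ± 0.18. Neither of these RNAs passed the filter in the captures alone. Of the 15 genes listed for the mitochondrial genome 9 were tested and all 9 were lower, at -6.48 to -5.32. They are transcribed within mitochondria, whose own ribosomes do not hold Rpl22. The cytochrome b gene mt-Cytb had 12.2, 20.2 and 27.1 CPM in the captures, against 1209, 1692 and 2023 CPM in the Inputs, and the mitochondrial ribosomal RNA mt-Rnr2 had 21.1 to 46.5 CPM in the captures and 1714 to 3831 CPM in the Inputs. Mitochondrial genes took 0.0093% to 0.0203% of the counts of a capture and 0.680% to 1.28% of those of an Input. The genes mt-Co2, mt-Atp8, mt-Atp6, mt-Co3, mt-Nd3 and mt-Nd4l had too few counts to be tested. These shares therefore hold few reads of them. The per-mouse median of the 9 mitochondrial genes tested was below the microglial one in 30 of 30 mice, by 1.81 to 3.12. The 15 lower genes of the naming rule were Bc1, the 9 mitochondrial genes tested and the genes Selenop (selenoprotein P), S100a16, Sdc4 (syndecan 4), Id3 and Litaf, the last 5 at -4.62 to -4.52.

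Long noncoding RNAs ranged from -3.51 to 0.19. Of 22 tested, 13 were lower by a fold of 2 and none higher, beside 14.2% and 0.258% of all genes. Over the annotation 80 of 365 lincRNA genes (21.9%) were lower, against 1879 of 13486 protein-coding genes (13.9%). Both shares include genes that passed the filter only through Input and could be called only as lower. Whether the shares differ for that reason was not tested. Malat1, a nuclear RNA of splicing speckles, had 10.5 to 55.3 CPM in the captures (median 24.7) and a median of 263 CPM in the Inputs, all of them higher, at -3.51 ± 0.07. Neat1, the scaffold of paraspeckles, was at -2.13 ± 0.09, Snhg14 at -2.26 ± 0.04, Meg3 at -1.53 ± 0.08 and Gas5 at -1.60 ± 0.04. At the other end, 6330403K07Rik was at 0.19 ± 0.02 and Peg13 at -0.15 ± 0.03, with Peg13 at 240 to 327 CPM in the captures and 186 to 375 CPM in the Inputs.

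**Figure D4:**
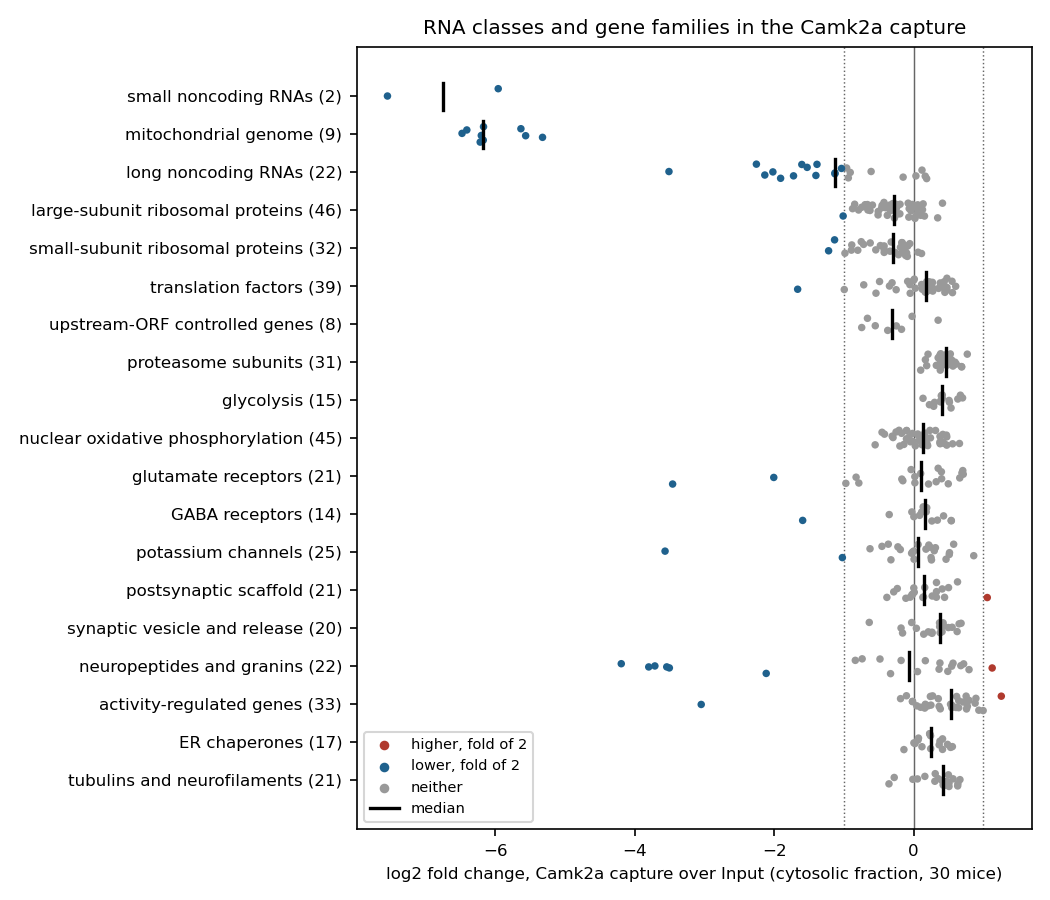
Each point is a gene of the RNA class or family named at the left, with the number of genes tested in brackets; the horizontal axis gives the log2 fold change of the Camk2a capture over Input in the cytosolic fraction of 30 mice, black bars mark medians, and dotted lines mark a fold of 2. Mitochondrial genes lie between -6.48 and -5.32, proteasome genes between 0.10 and 0.77, and single genes of the receptor and channel families lie apart from the rest.

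Ribosomal protein genes were lower on balance and those of the proteasome and glycolysis higher, nearly all by less than a fold of 2. The tagged gene Rpl22 was at -0.38 ± 0.03, with 26.5 to 38.3 CPM in the captures and 36.6 to 48.6 CPM in the Inputs, and reads of the tagged and untagged forms fall on the same gene, so this value does not check the tag. Its paralog Rpl22l1 was at 0.04 ± 0.05 (adjusted p = 0.51). Of 46 large-subunit protein genes 29 were lower and 7 higher at an adjusted p alone, with a median of -0.29. Of 32 small-subunit genes 29 were lower and 1 higher, with a median of -0.30. Over all genes tested, 44.5% were lower and 41.3% higher at that threshold. By a fold of 2, Rpl37, Rps27 and Rps29 were lower, at -1.01 ± 0.06, -1.22 ± 0.06 and -1.13 ± 0.07. Ribosomal protein genes have many near-identical pseudogenes, among which counting can split reads, so their values are uncertain. Of 39 translation factors 25 were higher and 11 lower at an adjusted p alone, beside 41.3% and 44.5% of all genes tested. Their median was 0.18. Eif4ebp1, whose protein blocks the cap-binding factor, was the sole one called at a fold of 2, at -1.66 ± 0.10, and Pabpc1, the poly(A)-binding protein gene, stood at 50.2% of the Input level, just short of a fold of 2. The elongation factor genes parted, with Eef1a1 at -0.54 ± 0.02 and Eef1a2, the form of mature neurons, at 0.60 ± 0.05.

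All 31 proteasome genes and all 15 glycolytic genes were higher at an adjusted p alone, at medians of 0.46 and 0.41, beside 41.3% of all genes. Psma4, a core subunit gene, had 140 to 180 CPM in the captures and 81.0 to 99.0 CPM in the Inputs, at 0.77 ± 0.02. Psmc5 was lowest of the proteasome at 0.10 ± 0.02, and at -0.018 with scaling to library totals. Pfkl, a phosphofructokinase gene, was at 0.70 ± 0.01, with 584 to 750 CPM in the captures and 341 to 465 CPM in the Inputs. Nuclear genes of oxidative phosphorylation were mixed, from Cox8a at -0.55 ± 0.04 to Uqcrc2 at 0.66 ± 0.02. At an adjusted p alone 24 of the 45 were higher and 15 lower, beside 41.3% and 44.5% of all genes tested. With scaling to library totals, 30 of 31 proteasome and 14 of 15 glycolytic genes passed as higher.

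Genes with short coding sequences had a lower median than genes with long ones. In the tenth of genes with the shortest coding length (93 to 552 bases) the median log2 fold change was -0.19, and in the tenth with the longest (3567 bases and above) it was 0.05. In the genes with coding lengths of 780 bases and above, the medians of the length classes lay between -0.01 and 0.05. By length of the untranslated regions the order was the other way, with a median of 0.06 in the shortest class and -0.11 in the longest. These medians describe genes, which are not replicates, and length was not separated from other properties of the genes.

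Within families of receptors and channels, single members stood apart. The counts below are to be read beside all genes tested, of which 41.3% were higher and 44.5% lower at an adjusted p alone and 14.2% lower by a fold of 2. Of 21 glutamate receptor genes 11 were higher and 7 lower at an adjusted p alone, and 2 were lower by a fold of 2. Grin2c, an NMDA receptor subunit gene found in cerebellar granule cells and astrocytes, was at -3.46 ± 0.09, with 0.420 to 1.81 CPM in the captures and 6.98 to 15.6 CPM in the Inputs. The kainate receptor gene Grik1 was at -2.01 ± 0.08. By contrast the AMPA receptor gene Gria2 was at 0.71 ± 0.02, and the NMDA receptor genes Grin1 and Grin2b at 0.69 ± 0.04 and 0.66 ± 0.02. Of 14 GABA receptor genes Gabrg1 alone was called, at -1.59 ± 0.07, while Gabrd, the subunit gene of extrasynaptic receptors of granule cells, was at 0.54 ± 0.03.

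Of 25 potassium channel genes, 2 were lower by a fold of 2: Kcnj10, the inward rectifier of astrocytes, at -3.57 ± 0.09, and Kcnc2, a channel gene of fast-spiking interneurons, at -1.02 ± 0.03. Kcnj9, a G-protein-gated channel gene of neurons, was at 0.86 ± 0.03, with captures wholly above Inputs. The medians of the glutamate receptor and potassium channel lists, 0.10 and 0.06, turned to -0.02 and -0.05 with scaling to library totals. Of 21 postsynaptic scaffold genes Baiap2 alone was called, and Dlg4, which encodes PSD-95, was at 0.00 ± 0.04 (adjusted p = 0.97). Of 20 genes of synaptic vesicles 16 were higher at an adjusted p alone, among them Snap25, a fusion protein gene, at 0.62 ± 0.01. Cplx1, a complexin gene, was at -0.64 ± 0.02 and lower in all 30 mice.

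Neuropeptide genes fell into both directions. At an adjusted p alone 11 of 22 were higher and 11 lower, near the 41.3% and 44.5% of all genes tested. By a fold of 2, 6 were lower (Npy, Sst, Tac2, Vip, Cort and Crh, at -4.19 to -2.11), beside 14.2% of all genes. Of the 6, 3 passed the filter only through Input, and 3 of the 19 genes that passed in both library types were lower, near that share. Penk alone was higher by a fold of 2, beside 0.258% of all genes. Penk had 39.0 to 101 CPM in the captures and 18.7 to 41.0 CPM in the Inputs, overlapping slightly, yet was higher in the capture of all 30 mice. Pdyn, the dynorphin precursor gene, was at 0.72 ± 0.04, and Scg2, a granin gene, at 0.79. Of 33 activity-regulated genes 27 were higher at an adjusted p alone, beside 41.3% of all genes, with Rasd1 called at a fold of 2, Egr1 at 0.93 ± 0.03 and Arc, whose mRNA travels into dendrites, at 0.76 ± 0.03. Fos was at 0.38 ± 0.05 with 5.88 to 35.2 CPM in the captures and 5.68 to 19.9 CPM in the Inputs. Klf4, a zinc-finger gene, was lower at -3.05 ± 0.21, on 0 to 5 counts per capture and 5 to 28 per Input, and passed the filter only through Input.

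The capture effect differed by training or sleep in few genes. Here the test was of the difference in log2 capture over Input between conditions, averaged over the other factor. Between SD and Sleep, 5 of 15144 genes differed, all 5 with a more negative value in SD (0.0330% of genes), and none more positive; 862 genes had an unadjusted p under 0.05. Sgk1, a kinase gene under glucocorticoid control, had the smallest p, at a difference of -0.64 ± 0.09 (adjusted p = 0.0014). Its median was 95.4 CPM in CFC SD and 95.4 CPM in CFC Sleep captures, whereas in Inputs it was 206 CPM in CFC SD and 98.6 CPM in CFC Sleep. Without conditioning, the Input medians were 103 CPM in NoCFC SD and 99.8 CPM in NoCFC Sleep, and those of the captures 88.7 CPM in NoCFC SD and 88.2 CPM in NoCFC Sleep. The capture effect was thus most negative in CFC SD, at -1.17, against -0.15 in CFC Sleep, -0.37 in NoCFC SD and -0.12 in NoCFC Sleep.

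Inpp5d, an inositol phosphatase gene of microglia and blood cells, differed by -1.04 ± 0.17 (adjusted p = 0.0018). Its captures held 0.920 to 1.62 CPM in CFC SD and 0.934 to 3.48 CPM in CFC Sleep, and its Inputs 7.75 to 11.3 CPM in CFC SD and 6.72 to 8.52 CPM in CFC Sleep. The other 3 were Tsc22d3, a glucocorticoid-induced gene (-0.28 ± 0.05, adjusted p = 0.0071), Usp2, a deubiquitinase gene with a daily rhythm (-0.18 ± 0.03, adjusted p = 0.0071), and Rbm3, a cold-inducible RNA-binding protein gene (-0.23 ± 0.04, adjusted p = 0.0216). Without the mouse block 2 negative differences were called, and Tsc22d3, Usp2 and Rbm3 lost their calls.

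Between CFC and NoCFC, 4 genes differed, 2 with a more positive value in CFC (0.0132% of genes) and 2 with a more negative one (0.0132%), and 1384 genes had an unadjusted p under 0.05. Without mouse 6 these counts were 6 and 9, and without the mouse block 0 and 1. Tsc22d3 had a difference of -0.41 ± 0.05 (adjusted p = 5.08e-06), with Input medians of 204 CPM in CFC SD, 146 CPM in CFC Sleep, 152 CPM in NoCFC SD and 115 CPM in NoCFC Sleep. The capture medians of that gene were 75.3 CPM in CFC SD, 63.4 CPM in CFC Sleep, 72.9 CPM in NoCFC SD and 67.5 CPM in NoCFC Sleep, and so moved less than the Inputs. Itpk1, an inositol phosphate kinase gene, differed by -0.17 ± 0.03, Zfand2a, a heat-shock zinc-finger gene, by 0.16 ± 0.03 and Fam13c by 0.17 ± 0.03. Training coincides with the number of the mouse in mice 1 to 22. With the run of mouse numbers by capture as a term, none of the 4 was called and Tsc22d3 stood at -0.385. Run and training cannot be told apart in mice 1 to 22.

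Markers of inhibitory neurons and glia, and mitochondrial RNA, were further below Input in the cytosolic than in the membrane fraction of the same mice. Over 120 libraries, the difference between the fractions (cytosolic minus membrane) in log2 capture over Input was 1 or more in 37 of 15898 genes (0.233%) and -1 or less in 1227 (7.72%), at an adjusted p under 0.05, and its median over all genes was -0.14. Of 15 shared inhibitory genes 13 were called at a difference of -1 or less, with list medians of -3.22 (cytosolic) and -1.32 (membrane). So were 16 of 17 oligodendrocyte genes (medians -3.78 and -1.76), 17 of 20 microglial genes (-3.82 and -1.87) and 18 of 26 astrocyte genes (-2.97 and -1.68), cytosolic before membrane. The 9 mitochondrial genes were all 9 called at -1 or less, with medians of -6.13 (cytosolic) and -2.85 (membrane). No gene of the CA1, granule or excitatory lists was called.

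Single genes showed the same contrast. Pvalb had a cytosolic value of -4.23 and a membrane value of -1.28, a difference of -2.96 ± 0.08 (adjusted p = 8.37e-43). Its membrane libraries held 4.17 to 10.8 CPM in the captures and 9.30 to 19.9 CPM in the Inputs. Nrsn1, which encodes the vesicle membrane protein neurensin of neurons, had the smallest p of this test, with a cytosolic value of -3.06 and a membrane value of -1.64. In the cytosolic fraction it had 76.8 to 103 CPM in the captures and 717 to 931 CPM in the Inputs. Ids, the gene of a lysosomal sulfatase, stood at -1.77 (cytosolic) against -0.76 (membrane). In the positive direction Kif5b, a kinesin heavy chain gene, had a cytosolic value of 0.43 against a membrane value of -0.65, and Trp53inp2, an autophagy gene, -0.53 against -1.63. H1f0, the gene of a linker histone, had 0.30 against -0.50, a difference of 0.80 ± 0.03 that was below 1.

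Some depleted genes did not pass the test of the difference. The cytosolic value stood beside the membrane value at -1.45 and -1.44 for Clu and at -1.48 and -1.48 for Meg3 (adjusted p = 0.91 and 0.97). Malat1, with a cytosolic value of -3.47 and a membrane value of -3.74, did not pass either (adjusted p = 0.0845).

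**Figure D5:**
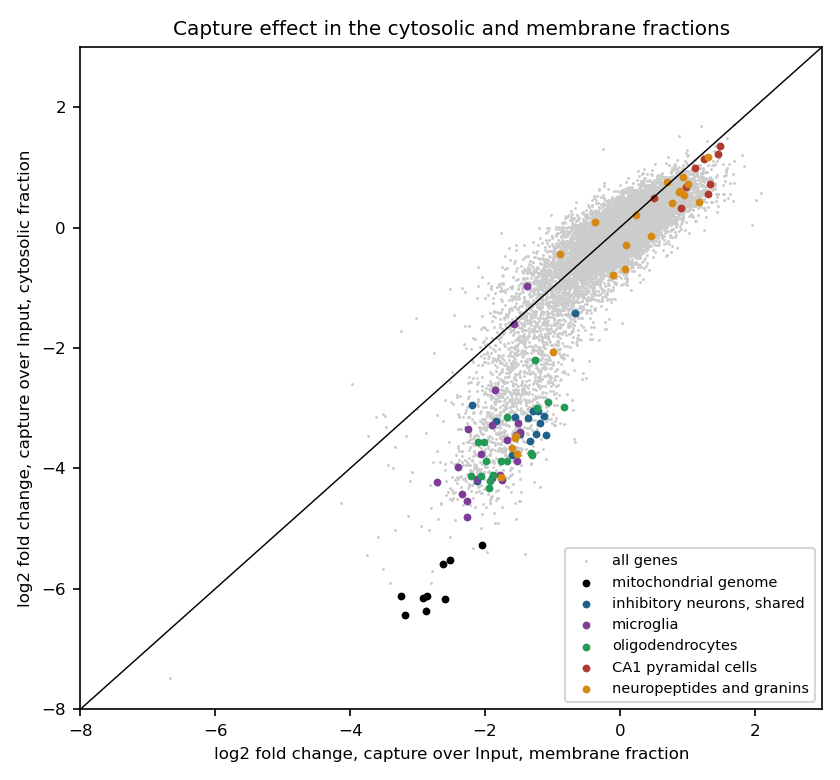
Each point is a gene; the horizontal axis gives the log2 fold change of the Camk2a capture over Input in the membrane fraction and the vertical axis that in the cytosolic fraction, from 1 fit of 120 libraries of 30 mice, with the line of equality. The 9 mitochondrial genes and most inhibitory, oligodendrocyte and microglial markers lie below the line; the CA1 list has a cytosolic median of 0.72 and a membrane median of 1.25.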

How the data were processed

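Hippocampal RNA of 30 mice was sequenced from the cytosolic fraction, as Input and as HA capture, with SMART-seq v4 libraries per the labels' protocols. The authors deposited raw counts per gene in 1 table of the series. Reads were aligned with STAR 2.6.1a to GRCm38.p6 and counted with featureCounts, per the submitters' processing notes. The table lists 54429 genes, 53739 with 1 position in GENCODE vM21.

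The counts were tested with edgeR 4.0.16 (R 4.3.3) by the quasi-likelihood test after filterByExpr by library type and TMM scaling, with Benjamini-Hochberg adjustment. The mouse was a block, since the labels say that each fraction was divided into Input and captures, and the capture effect was the equal-weight mean of 4 groups. Deviations of capture and Input correlated within a mouse at a median of 0.52, against -0.03 between mice, over 0.1 in 29 of 30 mice; mouse 23 stood at -0.03. The Input of the same mouse was the best match of 19 of 30 captures. Among 196 pairs of libraries of the same type and group, none agreed within sampling noise. Replicates are mice. The difference between fractions came from 120 libraries.

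Genes were named as the 15 highest and 15 lowest log2 fold changes among calls with an average log2 CPM of at least 3, the same direction in 4 groups and in at least 29 mice, passing over predicted genes and pseudogenes; as the smallest p of each interaction and of the fraction difference; and as members of gene lists. The genes and lists were chosen with earlier results of these data known. Alternatives were scaling, filter, threshold, block, DESeq2 1.42.0, limma 3.58.1 voom, runs of mouse numbers and, chosen after seeing the data, mouse 6 left out. Some genes that these rules select are not reported here.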

Additional observations from a re-analysis of the deposited data

Results flagged for a closer look

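The capture effect of single mice was searched for values that stood apart within a group, by the gap between the end value and the nearest other value set against the range. Of 532 sets of mice (the ratios of 131 genes in the 4 groups, and the library totals by group and library type) 48 had such a value. A rate of 1 in 20 would give 26.6. The sets share libraries and are not independent, so 48 cannot be judged against that figure. Values are log2 ratios of capture to Input of that mouse. Of the 48, 12 came from mouse 6 (NoCFC Sleep), whose Input stood apart. These were Camk2a at 1.56 (0.54 to 0.84 in the other mice of that group), Eef1a2 at 1.90 (0.45 to 0.75), Dlg4 at 1.08 (-0.17 to 0.14), Grin1 at 1.37 (0.41 to 0.78), Peg13 at 0.62 (-0.39 to -0.06), 6330403K07Rik at 0.59 (0.02 to 0.24), Atp1b2 at 0.28 (-0.57 to -0.35), Fibcd1 at 1.25 (0.77 to 0.97), Gad1 at -2.05, Neurod6 at 0.47, S100a16 at -5.38 and Scg2 at 0.39.

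Mouse 29 (CFC SD) gave Fth1 at -1.87, Gas5 at -0.95, Gpr161 at -0.29, Grin1 at 0.19, Kif5b at 0.69, Kit at -0.11, Psmc5 at 0.28, Rpl22l1 at 0.74, Slc17a7 at -0.17, Snap25 at 0.81 and Trp53inp2 at -0.79. Mouse 28 (NoCFC SD) gave Id3 at -5.76, Inpp5d at -3.85, Itpk1 at -0.21, Malat1 at -4.42 and Uqcrc2 at 0.56. Mouse 23 (NoCFC Sleep) gave Amigo2 at -2.11, Trp53inp2 at -0.80 and Vip at -5.32. Mouse 15 (CFC Sleep) gave Cldn5 at -1.28, Nov at 1.38 and Sgk1 at -0.52, and mouse 14 of that group gave Camk2a at 1.23 and Eef1a2 at 1.29. Mouse 19 (CFC SD) gave Acta2 at -5.78 and Hipk4 at 0.55, and mouse 21 of that group gave Coch at -2.06. Mouse 7 (NoCFC SD) gave Gad2 at -2.44 and Peg13 at -0.0304, and mouse 11 of that group gave Grik1 at -2.66 and Wfs1 at 1.84. In NoCFC Sleep, mouse 1 gave Bcar1 at 0.91 and Tsc22d3 at -0.58, and mouse 2 gave Malat1 at -2.47 and Ptgds at -3.71. In CFC Sleep, mouse 17 gave Id3 at -5.47.

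The capture effect differed between conditions by a test of the difference in 9 cases. For SD minus Sleep these were Sgk1 at -0.64, Inpp5d at -1.04, Tsc22d3 at -0.28, Usp2 at -0.18 and Rbm3 at -0.23. For CFC minus NoCFC they were Tsc22d3 at -0.41, Zfand2a at 0.16, Fam13c at 0.17 and Itpk1 at -0.17.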

How the results depend on the processing

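Counts of called genes depended on the threshold and the filter. Genes higher in the capture numbered 19 with library totals only, 22 where the filter had to be passed in each library type, 63 in mice 23 to 30 only, 125 with no filter on low counts, 443 by glmTreat against a fold of 1.5, and 6262 at an adjusted p alone. Genes lower numbered 1210 with the filter in each library type, 5473 with no filter and 6734 at an adjusted p alone. Under the other alternatives (RLE or upper-quartile scaling, mitochondrial genes and Bc1 left out, DESeq2, limma voom, mice 1 to 11, mice 12 to 22, and mouse 6 left out) the counts were 29 to 56 higher and 2104 to 2213 lower. The share of higher genes among all calls was 0.79% to 2.8% at a fold of 2, 13.2% by glmTreat and 48.2% at an adjusted p alone. The mouse block moved the interactions and left the counts of the main comparison at 40 higher and 2134 lower without it.

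Without the block, negative differences by SD numbered 2, and differences by CFC 0 positive and 1 negative. With no filter these were 18 positive and 36 negative by SD, and 43 positive and 47 negative by CFC. RLE scaling gave 5 positive and 10 negative by CFC, the run of mouse numbers as a term 1 positive by SD and 0 and 0 by CFC, and leaving out mouse 6 gave 6 and 9 by CFC. Positive differences between fractions numbered 67 with RLE scaling and 155 with no filter. With library totals only, Dlg4 turned to -0.12, Fam13c to -0.0032, Kit to -0.032, Psmc5 to -0.018 and Slc17a7 to -0.082. In mice 23 to 30, Dlg4 was at -0.10, and in mice 1 to 11, Rpl22l1 was at -0.16. The causes were not tested. Genes with few counts in the captures limit the depth of a negative value.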

Other observations

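Some abundant RNAs outside the lists of cell types and families were among the lower genes, and those named here were chosen after their values were seen. Of 543 genes with a median of 300 CPM or more in the Inputs, 34 were lower in the Camk2a capture by a fold of 2 and 2 were higher, beside 14.2% lower and 0.258% higher of all genes tested, and 17 of the 34 belonged to none of the lists. Nrsn1 and Ids, given above, were 2 of these. Ptgds, a prostaglandin synthase gene of oligodendrocytes and meninges, stood at -4.36 and Csrp1, a LIM-domain gene, at -4.33. Fth1, which encodes the heavy chain of ferritin, had 844 to 1309 CPM in the captures and 3577 to 5642 CPM in the Inputs, at -2.30 ± 0.03. Spop, a ubiquitin ligase adaptor gene, stood at -1.74, and Selenow, a small selenoprotein gene, at -1.24.

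Annotated processed pseudogenes moved apart from other noncoding genes. Of 349 tested, 5 were lower in the capture (1.43%, against 14.2% of all genes), and their median log2 fold change was 0.27. Reads on them can come from the parent gene.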
